A study of Rattus norvegicus with 12 samples.

Results

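The genes described here encode 9 neurotrophic factors, proteins that keep neurons alive and guide the growth of their axons. The genes are Bdnf, Ntf3, Ntf4, Gdnf, Nrtn, Cntf, Lif, Mdk and Ptn. They were taken by gene symbol from the annotation of a whole-transcript rat array, among 14329 genes measured. All 9 were measured, each by 1 probe set. The mean of 8 of them over all arrays lay above the lower quartile of the means of all genes, and that of Bdnf lay below it. Laryngeal muscle was studied 1 week after the recurrent laryngeal nerve of one side had been cut and 1 cm of it taken out, and the series asks how transcripts of injured tissue differ from those of uninjured tissue in 2 muscles. One is the vocal fold abductor, the posterior cricoarytenoid muscle (PCA), and the other is the laryngeal adductor complex (AC). All rats were male F344 rats. The 4 groups of 3 arrays each were PCA injury (PCA of rats with the nerve cut), PCA control (PCA of rats given the same surgical approach with the nerve left whole), AC injury (AC of rats with the nerve cut) and AC control (AC of rats given the approach alone). Each surgery group had 10 rats. The labels do not say which rat gave which array, from which side of the larynx, whether specimens were pooled, or whether PCA and AC arrays came from the same rats, so p-values cover only how far these arrays differ, part of which may be technical variation.

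Muscle fibres, Schwann cells and fibroblasts make such factors, and loss of innervation is known to change their output. The neurotrophins act through Trk receptors and the shared receptor p75, and the GDNF family through Ret with a GFR alpha co-receptor. CNTF and LIF signal through gp130 and the LIF receptor to JAK and STAT proteins. Midkine and pleiotrophin are a pair of heparin-binding growth factors that are abundant in the embryo and return after tissue injury, and they bind receptor phosphatases, syndecans and integrins.

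Values are log2 expression levels per probe set, so a difference of 1 is a doubling. They are relative to the other transcripts of an array and cannot be compared between genes. No call of presence or absence was used, so that a low level cannot be told apart from background. Differences were tested with limma across all genes on all 12 arrays, with Benjamini-Hochberg adjustment and a threshold of 0.05, and every adjusted p below is from that test unless another fit is named. Array medians lay between 7.11 and 7.17. All 6 markers of denervated muscle, among them the acetylcholine receptor subunit Chrng, passed as higher after injury in both muscles. Of all genes 13.3% passed as higher in PCA, and 1.91% passed in either direction in AC. These markers averaged 9.30, 9.22 and 9.895 in injured PCA, against 7.53, 7.93 and 8.67 in PCA controls. In AC they averaged 9.67 to 9.89 after injury, against 7.52 to 7.91 in controls. Chrng was 7.92 in PCA control 3, against 6.66 and 6.96 in the other PCA controls. The 5 measured muscle fibre markers averaged 12.44 to 13.18 in every array. Their group means were lower after injury: 12.74 against 13.11 in PCA, and 12.80 against 12.99 in AC. Of these 5 muscle fibre markers, 1 passed as lower in PCA, where 12.5% of all genes did. In AC 0 of them passed, against 1.91% of all genes. The part of muscle content in the results below was not tested. The specimens PCA injury 2, PCA control 1 and AC injury 2 held high transcripts of thyroid and parathyroid, the glands beside the larynx. Their mean over the 9 measured markers was 9.93, 10.11 and 8.77, against 6.11 to 7.34 in the other arrays. For the injury differences of the 9 factors within a muscle, values without these arrays are given below where they end a call or move a difference by over 1.5 times. For other genes and comparisons they are given only in part, so stability to these arrays cannot be read from their absence.

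In injured PCA, 3 of the 9 factors passed the test: midkine and pleiotrophin were higher and neurotrophin-3 was lower. Among all genes tested, 25.8% passed in this comparison, 13.3% higher and 12.5% lower. The share of the 9 factors was thus near that of the background. Counts of called genes in the PCA lists below are to be read against the same shares. Mdk had the largest difference of the 9 in PCA, at 2.31-fold. In injured AC 0 of the 9 passed by limma, against 1.91% of all genes, which is also the share for the AC counts by limma below. At an unadjusted p under 0.05, 4 of the 9 passed in AC, against 20.3% of all genes, the share against which all unadjusted counts in AC below are to be read. All 9 differences had the same sign in both muscles, as had 64.9% of all genes, though for Gdnf the sign turned under other scalings.

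**Figure D1:**
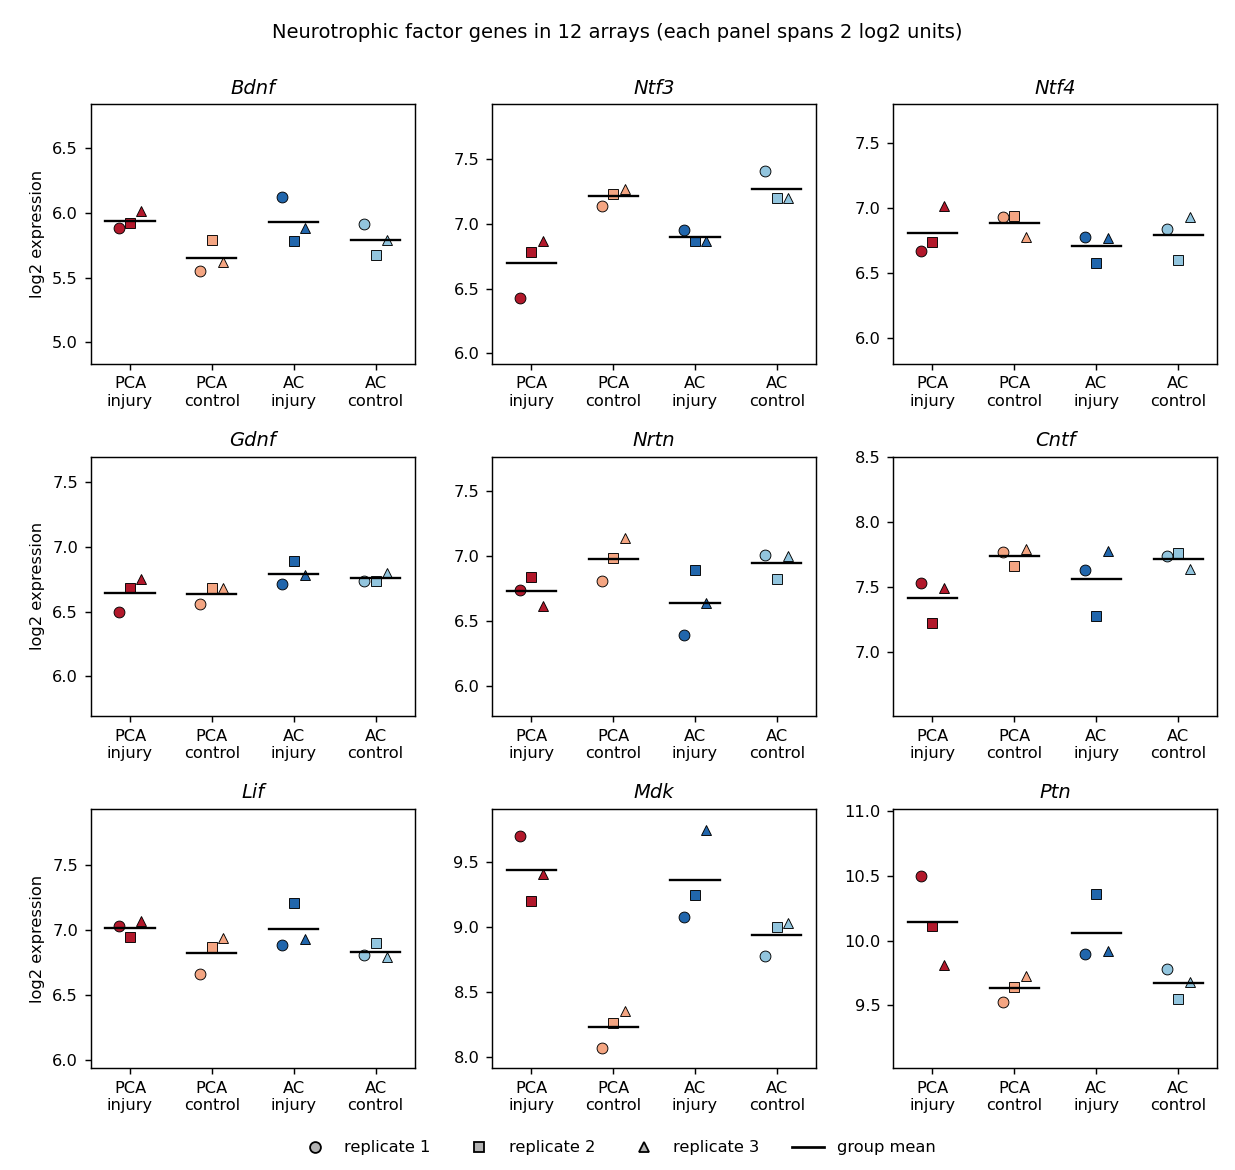
Log2 expression (vertical axis, each panel spanning 2 log2 units) of the 9 neurotrophic factor genes in 12 arrays, grouped as PCA injury, PCA control, AC injury and AC control, with a point per array and a line at the group mean. Mdk lies lowest in the PCA controls (8.07 to 8.35), below the other 9 arrays.

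Mdk encodes midkine. Log2 levels of Mdk were 9.70, 9.20 and 9.41 in injured PCA, against 8.07, 8.26 and 8.35 in PCA controls. Injured AC had 9.08, 9.25 and 9.75, against 8.78, 9.0 and 9.03 in AC controls. The injured arrays lay above the control arrays of the same muscle in both cases, and the PCA controls lay below every other array. The rise in PCA was 1.21 ± 0.17 (log2 ± SE, n = 3 arrays a group, adjusted p = 0.000838, 95% confidence interval 0.83 to 1.59). In AC the difference was 0.42 ± 0.17 (adjusted p = 0.199, interval 0.04 to 0.80), and 0.23 without AC injury 3. The difference between the injury effects, 0.79 ± 0.24 more in PCA, missed the threshold (adjusted p = 0.140, interval 0.25 to 1.32).

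The level of Mdk in uninjured muscle differed between the muscles. It averaged 8.23 ± 0.14 in PCA controls and 8.94 ± 0.14 in AC controls (SD, n = 3 each), a difference of -0.71 ± 0.17 (adjusted p = 0.0247). Mdk was the only one of the 9 factors past the threshold in this comparison, where 10.6% of all genes passed and 7.39% were lower. Mdk and Gdnf had PCA control arrays entirely below the AC control arrays, and 15.9% of all genes did. The call on Mdk was lost without the 3 arrays with thyroid transcripts (-0.63, adjusted p = 0.0982), and also without any one of PCA control 1, PCA control 3, AC control 2 or AC control 3 (adjusted p 0.0878, 0.0508, 0.0687 and 0.0896). After injury Mdk averaged 9.44 ± 0.25 in PCA and 9.36 ± 0.35 in AC (SD, n = 3 each). The arrays of injured PCA and injured AC overlapped for Mdk and for all other factors.

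Ptn encodes pleiotrophin, the relative of midkine. Pleiotrophin log2 levels were 10.50, 10.11 and 9.81 in injured PCA, against 9.53, 9.64 and 9.73 in PCA controls. Injured AC had 9.90, 10.36 and 9.92, against 9.78, 9.55 and 9.68 in AC controls. Injured and control arrays did not overlap in either muscle, but PCA injury 3 exceeded the highest PCA control by little. The difference in PCA was 0.51 ± 0.17 (1.42-fold, adjusted p = 0.0461, interval 0.14 to 0.88), and in AC 0.39 ± 0.17 (adjusted p = 0.221, interval 0.02 to 0.76). The AC difference was 0.24 without AC injury 2, and also without the 3 arrays with thyroid transcripts. The call in PCA rests on a narrow margin. It was lost in 10 of 12 fits that left out a single array, at adjusted p values of 0.0528 to 0.164, and was kept only without PCA injury 3 or without AC injury 2. Without PCA injury 1, the highest array, the difference was 0.33. The injury effects of PCA and AC differed by 0.12 ± 0.24 (adjusted p = 0.852).

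Ntf3 encodes neurotrophin-3, the ligand of TrkC, which is known to support proprioceptive and motor neurons. Its log2 levels were 6.43, 6.78 and 6.87 in injured PCA, against 7.14, 7.23 and 7.27 in PCA controls. In AC they were 6.95, 6.87 and 6.87 after injury, against 7.41, 7.20 and 7.20 in controls. Every injured array lay below every control array, across both muscles. The fall in PCA was -0.52 ± 0.11 (adjusted p = 0.00593, interval -0.76 to -0.28), a level 1.43-fold lower. In AC the difference was -0.37 ± 0.11 (adjusted p = 0.0954, interval -0.61 to -0.13), and it passed the threshold only where PCA injury 1 was left out of the fit (adjusted p = 0.0328). The difference between the injury effects was -0.15 ± 0.15 (adjusted p = 0.689).

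**Figure D2:**
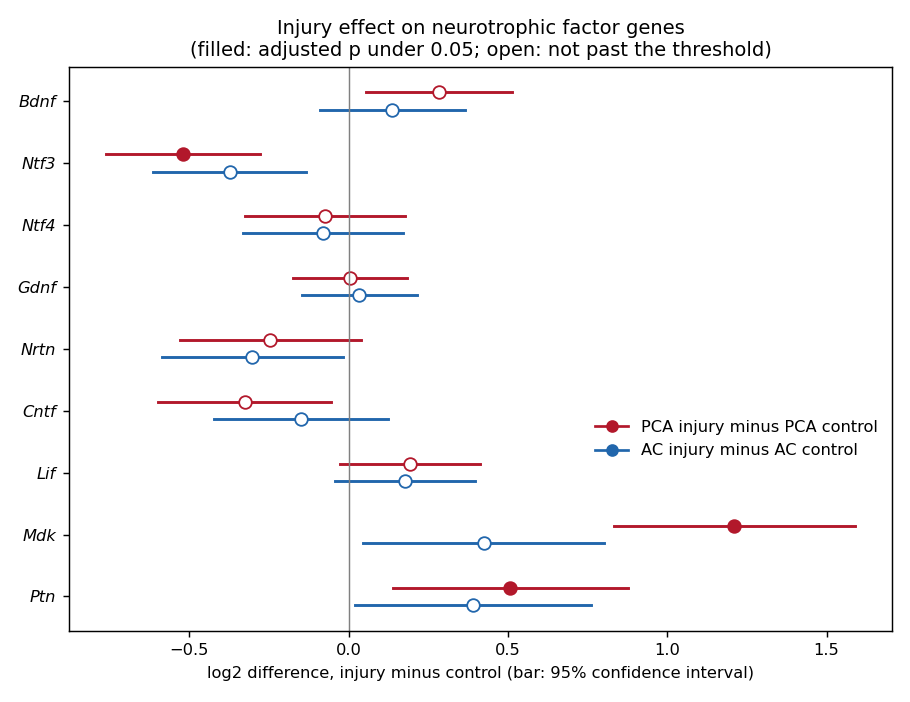
Log2 difference, injury minus control (horizontal axis), of each factor in PCA (red) and AC (blue), with 95% confidence intervals. Filled points passed an adjusted p of 0.05: Mdk, Ptn and Ntf3 in PCA, and none in AC.

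The promoters of the called factors are shown for reading beside these values, as far as the RefSeq table of the rat assembly GRCr8 used here gives them: 7 of the 9 factors had an entry. Each window runs from 250 bases before to 50 bases after an annotated start, on the minus strand and 5′ to 3′. Ntf3 has windows at chr4:160670574-160670873 and chr4:160668858-160669157, and the probe set does not tell its starts apart. The window of Ptn is chr4:66342283-66342582. Capitals mark the GC box (GGGCGG, on either strand) and the AP-1 site (TGANTCA, on either strand, matched as TGAGTCA); these do not overlap.
Ntf3 window 1: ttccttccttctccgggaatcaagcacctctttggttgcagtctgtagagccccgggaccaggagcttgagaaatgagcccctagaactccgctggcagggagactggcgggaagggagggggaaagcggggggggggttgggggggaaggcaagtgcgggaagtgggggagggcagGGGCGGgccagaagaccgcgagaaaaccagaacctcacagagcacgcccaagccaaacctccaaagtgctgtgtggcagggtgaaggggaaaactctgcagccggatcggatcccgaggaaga
Ntf3 window 2: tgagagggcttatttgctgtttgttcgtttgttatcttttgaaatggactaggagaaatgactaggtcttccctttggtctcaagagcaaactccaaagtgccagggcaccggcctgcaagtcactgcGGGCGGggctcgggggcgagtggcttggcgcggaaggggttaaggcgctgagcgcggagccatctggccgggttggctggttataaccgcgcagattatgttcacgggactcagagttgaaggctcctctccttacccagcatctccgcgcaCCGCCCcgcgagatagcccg
Ptn: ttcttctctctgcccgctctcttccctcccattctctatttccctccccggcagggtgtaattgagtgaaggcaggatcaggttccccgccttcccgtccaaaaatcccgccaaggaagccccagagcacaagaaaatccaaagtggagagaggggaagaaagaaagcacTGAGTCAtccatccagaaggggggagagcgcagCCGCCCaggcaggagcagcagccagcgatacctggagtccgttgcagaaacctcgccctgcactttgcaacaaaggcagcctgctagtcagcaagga
The Ntf3 windows hold 1 and 2 GC boxes, and the Ptn window holds 1 GC box and 1 AP-1 site. Of 33469 promoter windows in the table, 33.1% hold the GC box and 7.3% the AP-1 site. Neither TATAAA nor the STAT motif TTCNNNGAA, searched on both strands and present in 14.2% and 8.9% of windows, is found in the 3 windows. A match says only that the letters are present.

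The other 6 factors did not pass the test in either muscle. Bdnf, the ligand of TrkB, had log2 levels of 5.88, 5.92 and 6.01 in injured PCA, against 5.55, 5.79 and 5.62 in PCA controls. The groups did not overlap, and the difference was 0.28 ± 0.10 (adjusted p = 0.067). It passed where PCA control 2 (0.35, adjusted p = 0.0455) or AC injury 1 (adjusted p = 0.0447) was left out, and was 0.0608 (adjusted p = 0.892) with the mean of the squamous epithelium markers described below as a covariate. In AC the levels of Bdnf were 6.12, 5.78 and 5.88 after injury, against 5.91, 5.67 and 5.79 in controls, and overlapped (0.14 ± 0.10, adjusted p = 0.511). That difference was 0.04 without AC injury 1, 0.0767 without AC control 2, and 0.21 without AC injury 2 or without the 3 arrays with thyroid transcripts.

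Cntf, a cytokine that Schwann cells are known to store, had log2 levels of 7.53, 7.22 and 7.49 in injured PCA, against 7.77, 7.66 and 7.79 in PCA controls. All injured arrays were below all controls, by -0.33 ± 0.12 (adjusted p = 0.0767). The difference passed without AC injury 2 (adjusted p = 0.0301). In AC the levels were 7.63, 7.28 and 7.78 after injury, against 7.74, 7.76 and 7.64 in controls, and overlapped (-0.15 ± 0.12, adjusted p = 0.55). Without the 3 arrays with thyroid transcripts the difference was -0.21 in PCA and -0.00833 in AC. The AC difference was also -0.00833 without AC injury 2, and -0.26 without AC injury 3.

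Lif, a cytokine of the same receptor family, had log2 levels of 7.03, 6.95 and 7.07 in injured PCA, against 6.66, 6.87 and 6.94 in PCA controls. The injured arrays were just above the controls (0.19 ± 0.10, adjusted p = 0.19). In AC the levels were 6.89, 7.21 and 6.93 after injury, against 6.81, 6.90 and 6.79 in controls, and AC injury 1 lay within the range of the controls (0.18 ± 0.10, adjusted p = 0.36). Without AC injury 2, or without the 3 arrays with thyroid transcripts, the AC difference was 0.0767. Without PCA control 1 the PCA difference was 0.11.

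Nrtn encodes neurturin, a ligand of Ret. Log2 levels of Nrtn were 6.74, 6.84 and 6.61 in injured PCA, against 6.81, 6.98 and 7.14 in PCA controls. Injured AC had 6.39, 6.89 and 6.64, against 7.01, 6.82 and 7.0 in AC controls. The groups overlapped in both muscles, at -0.25 ± 0.13 in PCA (adjusted p = 0.195) and -0.30 ± 0.13 in AC (adjusted p = 0.217). The PCA difference was -0.39 without the 3 arrays with thyroid transcripts and -0.12 with the squamous covariate, and the AC difference was -0.18 without AC injury 1.

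Gdnf, the first known ligand of Ret and a survival factor for motor neurons, had log2 levels of 6.50, 6.68 and 6.75 in injured PCA, against 6.56, 6.68 and 6.68 in PCA controls. In AC they were 6.71, 6.89 and 6.78 after injury, against 6.74, 6.74 and 6.80 in controls. The groups overlapped, and the 95% confidence interval of the difference in PCA ran from -0.18 to 0.18. The interval in AC ran from -0.15 to 0.21.

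Ntf4 encodes neurotrophin-4, which muscle fibres are known to make depending on their activity. Log2 levels of Ntf4 were 6.67, 6.74 and 7.02 in injured PCA, against 6.93, 6.94 and 6.78 in PCA controls. Injured AC had 6.78, 6.58 and 6.77, against 6.84, 6.60 and 6.93 in AC controls. Both pairs of groups overlapped, with intervals of -0.32 to 0.18 in PCA and -0.33 to 0.17 in AC. Without the 3 arrays with thyroid transcripts the difference of Ntf4 was -0.015 in each muscle, and without single arrays it ran from -0.18 to -0.00333 in PCA and from -0.17 to -0.01 in AC.

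Over all 9 factors, 6 had groups that did not overlap in PCA: Bdnf, Lif, Mdk and Ptn with injury higher, and Ntf3 and Cntf with injury lower. Among all genes 37% did not overlap, 18.2% higher and 18.8% lower. In AC, Mdk and Ptn were higher and Ntf3 was lower without overlap, and 28.4% of all genes did not overlap (15.3% higher and 13.1% lower). The 4 factors with an unadjusted p under 0.05 in AC, where 20.3% of all genes had one, were Ntf3, Mdk, Nrtn and Ptn. The median difference of the 9 factors was 0.0033 in PCA, against -0.0267 over all genes, and 0.0333 in AC, against 0.0167 over all genes. For the difference between the injury effects, 0 of the 9 factors passed by limma, and 0.154% of all genes did. At an unadjusted p under 0.05, 1 of the 9 (Mdk) and 15.7% of all genes passed. The 6 factors not named above for that difference ranged from -0.18 (Cntf) to 0.15 (Bdnf).

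Another 9 measured genes were those of other ligands of the same families, together with the separate pair Cdnf and Manf. Of these, 1 passed in PCA and 0 in AC by limma. In AC 3 had an unadjusted p under 0.05. Artn, the gene of artemin, differed by 0.05 ± 0.12 in PCA (adjusted p = 0.804). The gene that passed was Cdnf, a factor named for its effect on dopamine neurons, with log2 levels of 6.78, 7.22 and 7.88 in injured PCA and 8.05, 8.39 and 8.11 in PCA controls. It was lower by -0.89 ± 0.24 in PCA (adjusted p = 0.0202) and differed by -0.79 ± 0.24 in AC (adjusted p = 0.104). The PCA call was lost without PCA control 2, PCA injury 1 or PCA injury 2 (adjusted p 0.065, 0.071 and 0.0537). It was also lost in 3 of 12 other settings. Among these were the fit without the 3 arrays with thyroid transcripts (-0.92, adjusted p = 0.0950) and that of only the PCA groups (adjusted p = 0.0669).

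Receptors of the neurotrophins moved in both directions in injured PCA: of 6 measured, 2 rose and 1 fell, and the median difference was -0.21. Ntrk3 encodes TrkC, the receptor of neurotrophin-3, and was lower along with its ligand. Its log2 levels were 7.69 in all 3 arrays of injured PCA, against 8.24, 8.24 and 7.97 in PCA controls. In AC they were 8.06, 7.56 and 7.84 after injury, against 8.28, 8.39 and 8.29 in controls. No injured array reached its control group. The fall in PCA was -0.46 ± 0.12 (adjusted p = 0.0151, lost without PCA control 1 at 0.0529), and the difference in AC was -0.50 ± 0.12 (adjusted p = 0.0564).

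Ngfr encodes p75, which all neurotrophins bind, and which Schwann cells are known to raise after nerve injury. Its log2 levels were 7.72, 7.79 and 7.71 in injured PCA, against 7.24, 7.27 and 7.13 in PCA controls. All injured arrays were above all controls, by 0.53 ± 0.09 (adjusted p = 0.00201). In AC the difference was 0.25 ± 0.09 (adjusted p = 0.153). Sorcs2, a partner of p75 in binding neurotrophin precursors, rose by 0.86 ± 0.24 in PCA (adjusted p = 0.0218) and differed by 0.91 ± 0.24 in AC (adjusted p = 0.0748). Its call was lost without PCA control 1, PCA control 3 or PCA injury 1 (adjusted p 0.0636, 0.0589 and 0.084), and without the 3 arrays with thyroid transcripts (0.89, adjusted p = 0.0986). Ntrk2, the gene of the Bdnf receptor TrkB, differed by -0.30 ± 0.12 in PCA (adjusted p = 0.0872). In AC 0 of the 6 receptors passed by limma, and 3 had an unadjusted p under 0.05.

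Among receptors of the GDNF family, 1 of 5 measured fell in PCA and 0 passed in AC by limma, where 0 had an unadjusted p under 0.05. The gene that fell was Gfra3, the co-receptor of artemin, at -0.44 ± 0.15 (adjusted p = 0.0496), a call lost in 10 of 12 fits that left out a single array. Ret, the shared signalling receptor, differed by -0.53 ± 0.26 in PCA (adjusted p = 0.167). Gfra1, the co-receptor of Gdnf, differed by 0.19 ± 0.15 (adjusted p = 0.38). Gfra2, the co-receptor of neurturin, differed by 0.0067 ± 0.17 (adjusted p = 0.984).

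**Figure D3:**
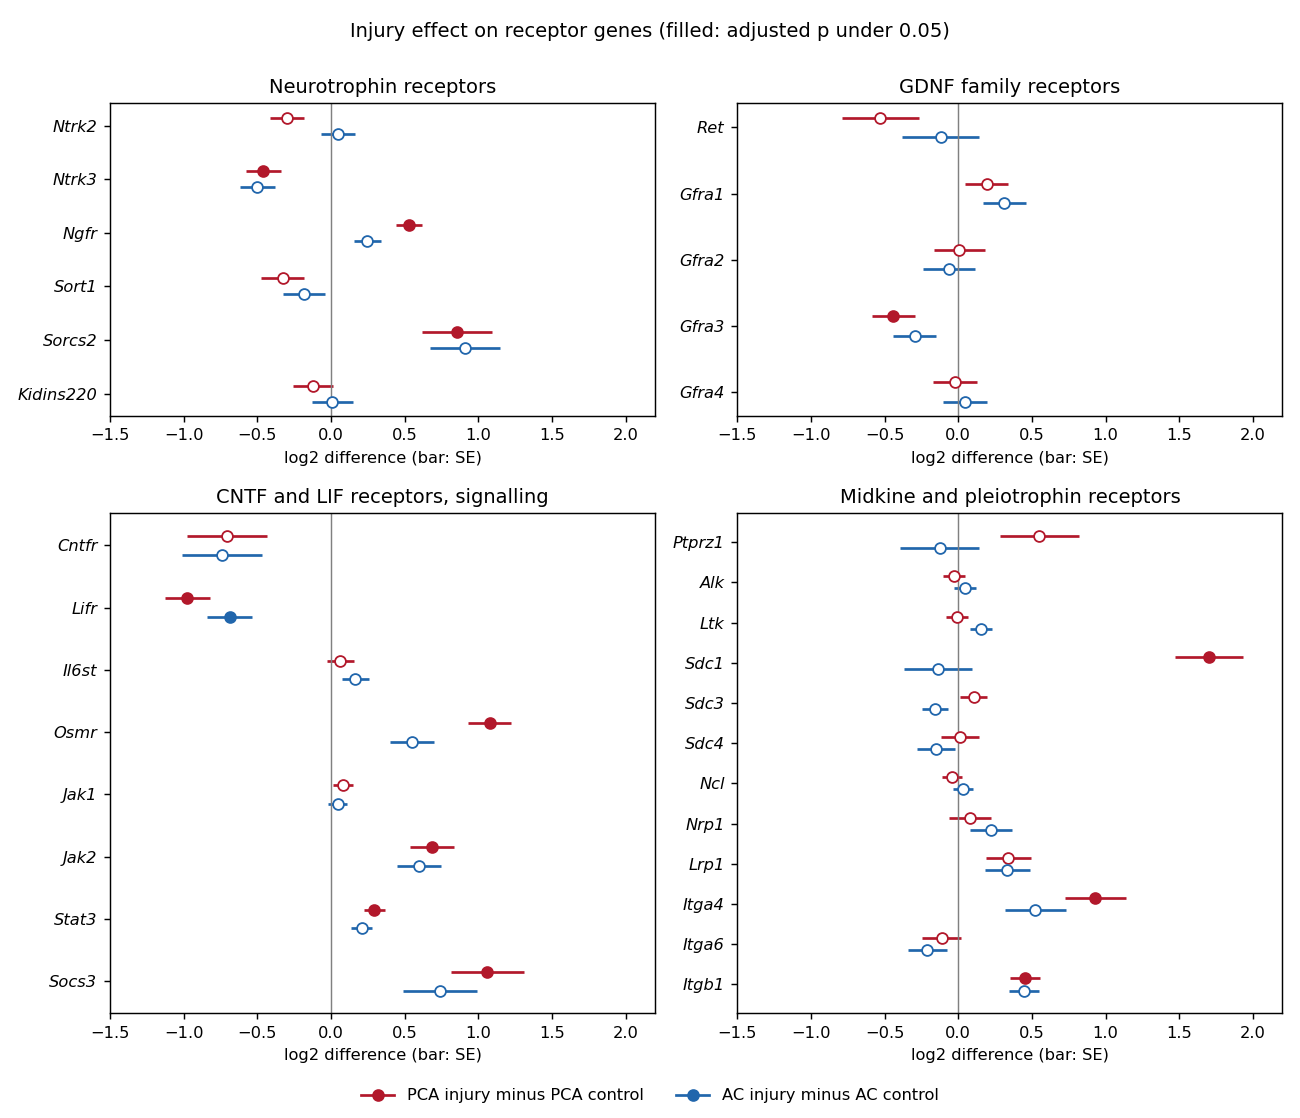
Log2 difference, injury minus control (horizontal axis, with SE), of receptor and signalling genes in PCA (red) and AC (blue), with filled points for an adjusted p under 0.05. Lifr is lower in both muscles, and Sdc1 is higher in PCA (1.70 ± 0.23).

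Receptors and signalling genes of CNTF and LIF showed 4 rises and 1 fall among 8 measured in PCA, with a median difference of 0.19. Lifr encodes the LIF receptor, which CNTF also needs. Its log2 levels were 8.76, 9.35 and 9.35 in injured PCA, against 10.21, 10.05 and 10.13 in PCA controls. In AC they were 9.42, 9.05 and 9.26 after injury, against 9.88, 10.06 and 9.85 in controls. Injured and control arrays stood apart in both muscles. Lifr fell by 0.98 on the log2 scale in PCA (SE 0.15, adjusted p = 0.00134) and by 0.69 in AC (SE 0.15, adjusted p = 0.0487), the only gene of the 4 factor receptor lists to pass in both muscles. The AC call was lost in 9 of 12 fits that left out a single array. Cntfr, the CNTF-specific subunit, differed by -0.71 ± 0.27 in PCA (adjusted p = 0.0785) and by -0.74 ± 0.27 in AC (adjusted p = 0.157). The shared subunit gp130, encoded by Il6st, differed by 0.06 ± 0.09 in PCA.

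The rises in that group were of the oncostatin M receptor and of the pathway within the cell. Osmr, which pairs with gp130, had log2 levels of 10.65, 10.20 and 10.23 in injured PCA, against 9.12, 9.40 and 9.33 in PCA controls, and rose by 1.08 ± 0.15 (adjusted p = 0.000694). Socs3, a feedback inhibitor that STAT3 is known to induce, had 8.29, 7.79 and 8.01 in injured PCA, against 6.56, 7.40 and 6.95 in PCA controls, and rose by 1.06 ± 0.25 (adjusted p = 0.0102). Injured and control arrays of both genes did not overlap. The kinase gene Jak2 rose by 0.69 ± 0.15 (adjusted p = 0.00693) and Stat3 by 0.29 ± 0.07 (adjusted p = 0.0104). In AC the differences of Osmr, Socs3, Jak2 and Stat3 were 0.55, 0.74, 0.60 and 0.21, with adjusted p values of 0.0789, 0.133, 0.0656 and 0.132.

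Among 12 receptors of midkine and pleiotrophin, 3 rose in PCA, 0 fell, and the median difference was 0.09. The share that passed was near the 25.8% of all genes. Sdc1 encodes syndecan-1, a heparan sulphate proteoglycan of epithelia and plasma cells that binds both factors. Its log2 levels were 10.22, 10.18 and 10.39 in injured PCA, against 7.99, 9.16 and 8.53 in PCA controls. In AC they were 10.44, 10.15 and 10.42 after injury, against 10.70, 10.37 and 10.35 in controls. As with Mdk, the PCA controls lay below every other array. Sdc1 rose by 1.70 ± 0.23 in PCA (adjusted p = 0.00067) and differed by -0.14 ± 0.23 in AC (adjusted p = 0.796); the difference between these effects was 1.84 ± 0.33 (adjusted p = 0.0561). It was lower in PCA controls than in AC controls (-1.91 ± 0.23, adjusted p = 0.00164), as was the receptor phosphatase gene Ptprz1 (-1.10 ± 0.27, adjusted p = 0.0247).

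The integrin subunit genes Itga4 and Itgb1 rose by 0.93 ± 0.21 (adjusted p = 0.00823) and 0.45 ± 0.10 (adjusted p = 0.00785) in injured PCA. In AC, Itgb1 differed by 0.44 ± 0.10 (adjusted p = 0.0518). Ptprz1 differed by 0.55 ± 0.27 in PCA (adjusted p = 0.163), and Alk, a receptor tyrosine kinase reported to respond to both factors, by -0.03 ± 0.07. In AC 0 of the 12 passed by limma, and 3 had an unadjusted p under 0.05.

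Among genes of proteases known to cleave neurotrophin precursors, or to activate such a protease, 4 of 9 rose and 1 fell in PCA, and 1 rose in AC. Mmp9, a gelatinase that myeloid cells and epithelia also make, had log2 levels of 10.13, 8.97 and 8.86 in injured PCA, against 5.20, 5.35 and 5.55 in PCA controls, a rise of 3.95 ± 0.42 (adjusted p = 0.000272). In AC the levels of Mmp9 were 7.81, 9.32 and 9.48 after injury, against 7.97, 8.40 and 8.12 in controls, and overlapped (0.71 ± 0.42, adjusted p = 0.381). Plat, the gene of tissue plasminogen activator, rose by 1.18 ± 0.15 in PCA (adjusted p = 0.000503). Plg, the gene of plasminogen, on which that activator acts, differed by 0.08 ± 0.12 in PCA (adjusted p = 0.656). Mmp7 rose by 0.89 ± 0.13 in PCA (adjusted p = 0.00104) and by 0.61 ± 0.13 in AC (adjusted p = 0.0449), and its AC call was lost in 10 of 12 fits that left out a single array. Mmp3 rose by 0.81 ± 0.26 in PCA (adjusted p = 0.0428), a call lost in 8 of those 12 fits. The convertase gene Pcsk7 fell, at -0.49 ± 0.10 (adjusted p = 0.00575), while Furin differed by -0.17 ± 0.08 (adjusted p = 0.171).

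Markers of other cell types moved with these results. The 8 macrophage markers averaged 10.45, 10.17 and 10.16 in injured PCA, against 8.45, 9.29 and 8.84 in PCA controls. In AC they averaged 10.11, 10.20 and 10.42 after injury, against 9.41, 9.52 and 9.74 in controls. As for Mdk, the PCA controls were lowest. Of the 8 markers, 7 rose in PCA, where 13.3% of all genes did. In AC all 8 differences were positive, and 1 marker, Cd68, passed, against 1.91% of all genes. At an unadjusted p under 0.05, 6 of the 8 passed in AC, against 20.3% of all genes. The 7 fibroblast markers averaged 11.37 to 11.66 in injured PCA, against 10.57 to 11.02 in PCA controls, and 11.38 to 11.62 in injured AC, against 10.98 to 11.39 in AC controls; 5 rose in PCA and 0 passed in AC by limma, where 4 higher and 1 lower had an unadjusted p under 0.05. The part of macrophages and fibroblasts in the results on Mdk, Ptn and their receptors was not tested. In such bulk specimens, fewer cells of a type and less RNA per cell cannot be told apart.

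The 7 measured Schwann cell markers averaged 7.89 to 7.98 in injured PCA, against 8.16 to 8.22 in PCA controls, and 7.83 to 7.95 in injured AC, against 8.07 to 8.19 in AC controls. These are the directions of Ntf3 and Cntf, and opposite to that of Ngfr. Sox10, which defines the Schwann lineage, and S100b fell in PCA, at -0.42 ± 0.10 (adjusted p = 0.0104) and -0.99 ± 0.15 (adjusted p = 0.00128). The other 5 of the 7 did not pass in PCA. In each muscle 6 of the 7 differences were negative and 1 was positive (0.34 in PCA and 0.23 in AC). In AC 0 of the 7 passed by limma, and 5 had an unadjusted p under 0.05. In PCA the 6 measured cartilage markers and the 7 adipocyte markers all fell. The cartilage markers averaged 8.71 to 9.23 in injured PCA, against 10.26 to 11.04 in PCA controls. The adipocyte markers averaged 7.11 to 7.84, against 8.68 to 9.20. In AC the cartilage markers averaged 8.96 to 9.59 after injury, against 8.93 to 9.82 in controls. The adipocyte markers there averaged 6.98 to 7.69, against 7.24 to 7.35. In both lists every PCA control array lay above all arrays of the other groups. The part of these cell types in the results on Ntf3, Cntf and Ngfr was not tested.

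**Figure D4:**
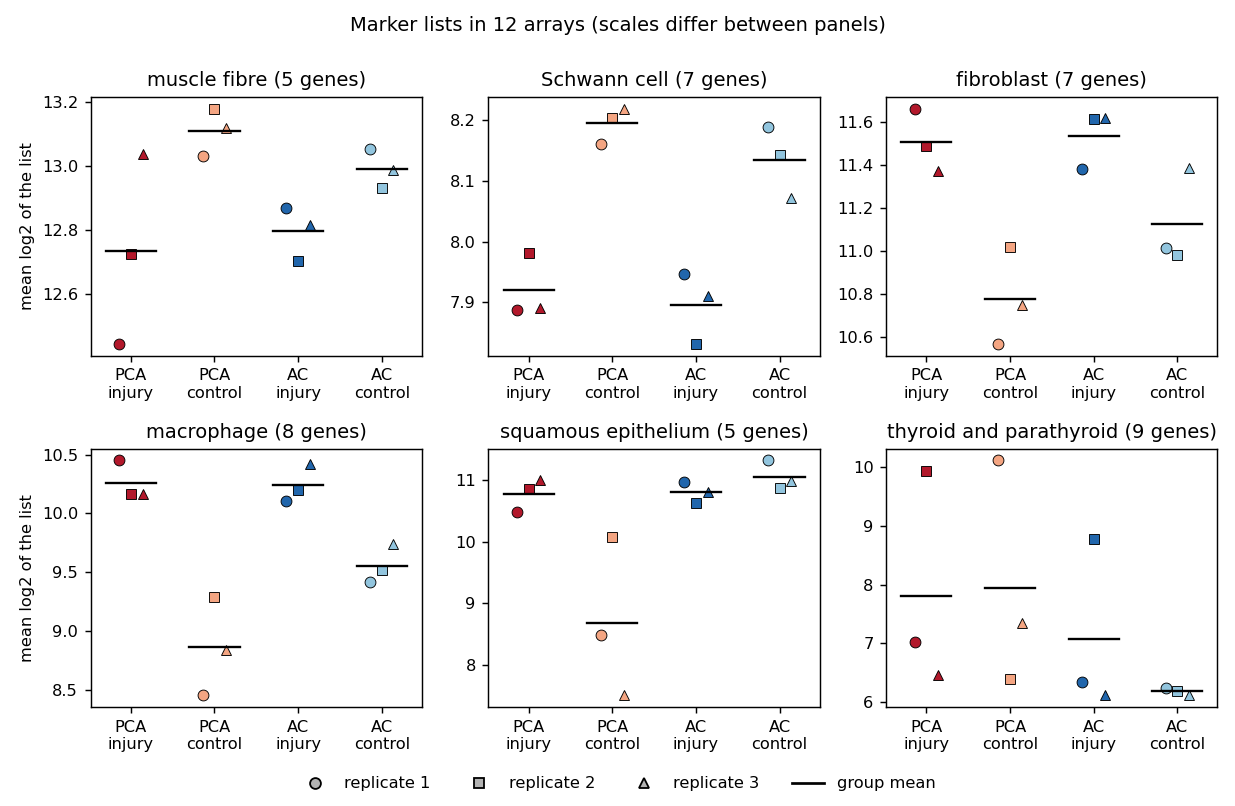
Mean log2 level of 6 marker lists (vertical axis, scales differing between panels) in each of 12 arrays, by group, with a line at the group mean. Macrophage and squamous epithelium lists are lowest in the PCA controls, and the thyroid and parathyroid list is high in PCA injury 2, PCA control 1 and AC injury 2.

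The 5 measured markers of squamous epithelium, the lining of the larynx, averaged at least 10.48 in every array of injured PCA, against 8.48, 10.08 and 7.50 in PCA controls. They averaged 10.64 to 10.97 in injured AC, against 10.87 to 11.32 in AC controls. With this mean as a covariate, Mdk remained past the threshold in PCA (1.36, adjusted p = 0.0443), while Ntf3 (-0.61, adjusted p = 0.0999) and Ptn (0.67, adjusted p = 0.222) did not, though both differences were larger than without it. The lower Mdk of PCA controls against AC controls was no longer past it (-0.88, adjusted p = 0.492). In that fit 394 of all genes passed in PCA, against 3697 without the covariate, which itself differs between the PCA groups. None of the receptor and signalling genes above passed with it, and of the proteases only Mmp9 did. Without the 3 arrays with thyroid transcripts, Mdk (1.25, adjusted p = 0.00853) and Ntf3 (-0.60, adjusted p = 0.0299) remained past the threshold in PCA and Ptn did not (0.47, adjusted p = 0.138); the AC calls of Lifr and Mmp7 were lost here and with the covariate.

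The genes most like each called factor were ranked over the 12 arrays by the root mean square difference of log2 levels, each gene centred on its own mean. Nearest to Mdk were Emp3, a membrane protein gene (0.124), Hacd4 (0.127) and Lyc2 (0.133). Emp3 averaged 10.01 in injured PCA, against 8.66 in PCA controls, and 9.85 in injured AC, against 9.45 in AC controls. Nearest to Ntf3 were Suox, the gene of mitochondrial sulfite oxidase (0.0833), Coq7, an enzyme gene of ubiquinone synthesis (0.0848), and Xk (0.0885). Suox averaged 9.10 in injured PCA, against 9.65 in PCA controls, and 9.29 in injured AC, against 9.72 in AC controls. Nearest to Ptn were Zc3h12d (0.0796), Kcna3, a potassium channel gene of lymphocytes (0.107), and Fgd3 (0.109). Zc3h12d averaged 6.90 in injured PCA, against 6.48 in PCA controls, and 6.94 in injured AC, against 6.53 in AC controls. Kcna3 averaged 8.04 in injured PCA, against 7.63 in PCA controls, and 7.89 in injured AC, against 7.50 in AC controls.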

How the data were processed

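Total RNA of laryngeal muscle was labelled with biotin and hybridised to whole-transcript rat arrays, per the labels' protocols. For each array the authors deposited log2 values, 1 to a probe set. The submitters' processing notes name RMA and Partek. No source states the log base: 2 was assumed, since values run from 2.57 to 14.04. The background step is not given in the sources used here. Of 27342 probe sets, 15103 have 1 gene symbol, 317 several and 11922 none, by the platform annotation. Those with 1 symbol were checked against the RefSeq annotation of GRCr8 (15067 matched, 36 kept their symbol). Where a gene had several probe sets (500 genes), that of the highest mean stood for it, and 14329 genes remained. Columns of samples outside the series numbered 0.

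All genes and arrays entered a single fit of 1 mean per group by lmFit and eBayes (limma 3.58.1 in R 4.3.3), with 8 residual and 3.14 prior degrees of freedom. Tests were two-sided. The number of arrays limits the precision. Groups came from the sample titles. Members and lists were chosen with earlier results of these data known. The text names all 9 factors, the 3 nearest genes of each called one, and from each list the first gene used, up to 4 called genes with the smallest p and receptors of a described factor, and of marker lists up to 2 genes. Stat3, Mmp3 and Plg were added after their values were seen. Tested on simulated data of 14329 genes, the fit recovered 53.7%, 98.5% and 100% of genes changed 1.5-fold, 2-fold and 4-fold in PCA. The shares were 62.7%, 80.6% and 100% in AC, 29.9%, 80.6% and 93.9% for PCA minus AC effects, and 55.2%, 89.6% and 98.5% between control muscles. Noise there was independent between genes, which real data need not match. In each simulation only 67, 67 and 66 genes were changed by these folds, while 3697 genes passed in the real PCA comparison. The Benjamini-Hochberg cutoff depends on that number, so the simulated shares do not give the sensitivity of the real comparisons. Alternatives covered scaling, dim genes (lower quartile of means left out), probe sets, prior, array weights, groups fitted, a replicate block, the thyroid arrays, the squamous covariate, a threshold of 0.1 and leaving out single arrays. Plots were drawn in matplotlib 3.10.9 (Python 3.11.15).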

Additional observations from a re-analysis of the deposited data

How the results depend on the processing

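Of the 9 factors, the count past the threshold in PCA was 3, with 1 under the squamous covariate, 5 at a threshold of 0.1, and 2 to 4 when single arrays were left out. In AC the count of 0 became 1 (Ntf3) at a threshold of 0.1, and 0 to 1 when single arrays were left out. Between the control muscles the count of 1 became 0 under the squamous covariate and without the thyroid arrays, and 0 to 1 when single arrays were left out. It was 0 for the difference of the injury effects under all 11 other settings and all 12 fits without a single array. Mdk in PCA stayed past the threshold under all 12 other settings and all 12 fits without an array, at 1.08 to 1.36. Ntf3 in PCA missed it only under the squamous covariate, and ranged from -0.61 to -0.39 without single arrays. Ptn in PCA also missed it with arrays centred (adjusted p 0.0589), quantile normalised again (0.0643), all probe sets fitted (0.0555) and only the PCA groups fitted (0.0953), and ranged from 0.33 to 0.67 without single arrays. Cntf in PCA passed with array weights (-0.40, adjusted p = 0.0312).

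Over 18 same-numbered pairs of arrays the correlation of deviations ran from -0.39 to 0.34, with 4 over 0.1. Injury and control arrays came from different rats, so only pairs of PCA with AC in the same surgery group could share a rat. These were -0.39, 0.34 and 0.27 for injury and -0.05, -0.34 and 0.03 for control. With 3 arrays a group, such values cannot tell whether rats were shared. With the replicate number as a block, 2 factors passed in PCA (Mdk and Ntf3; Ptn had adjusted p = 0.0698), 0 in AC, 1 between the control muscles and 0 for the difference, and 3239, 59, 1162 and 0 of all genes. Gdnf in PCA turned sign with arrays centred (-0.02), quantile normalised again (-0.0542), array weights (-0.011), without the thyroid arrays (-0.055) and under the squamous covariate (-0.0308), and ran from -0.05 to 0.075 without single arrays. In AC it was -0.015 without the thyroid arrays and -0.015 to 0.075 without single arrays. Between the control muscles, Ntf3 was 0.0493 under the squamous covariate (-0.0917 to 0.0133 without single arrays), and Ptn 0.00778 quantile normalised again and 0.015 without the thyroid arrays (-0.0967 to 0.0183 without single arrays). The Ptn difference between the injury effects ran from -0.0633 to 0.282 without single arrays. The causes were not tested.

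Of all genes, 3697 passed in PCA, with 2257 for the PCA groups alone, 2335 without the thyroid arrays, and 2466 to 3558 without single arrays. In AC 274 passed, with 619 for the AC groups alone, 703 with array weights, 957 at a threshold of 0.1, 133 under the squamous covariate and 10 without the thyroid arrays. Without AC control 1, 2 or 3 they were 41, 14 and 127, without AC injury 2 or 3 13 and 52, without PCA control 2 or 3 169 and 146, and without PCA injury 1 or 3 663 and 622. Between the control muscles 1523 passed, with 2 under the squamous covariate, 812 without the thyroid arrays, 2436 over all probe sets, 2626 with array weights, 2394 at a threshold of 0.1, and 714, 797, 881 and 805 without AC control 1, AC control 3, PCA control 1 or PCA control 3. For the difference of the injury effects the count of 22 ran from 0 to 474, and was 406 without PCA control 2. With 3 arrays a group, 53.7% of simulated 1.5-fold changes were called in PCA, in data with far fewer changed genes than passed here.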
